A study of Mus musculus with 19 samples.

Results

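The genes described here are 30 genes of the piRNA pathway and of germ granules, listed by symbol for what their proteins do. They were not filtered on their values, but the list was chosen with earlier results of these data known. All 30 were present among the 22419 protein-coding genes of the TPM tables, and 29 exceeded 1 TPM (a level normalized to transcript length and library size) in at least 1 of 7 RNA-seq libraries. The exception was Tdrd6. PIWI proteins of the germline carry small RNAs, piRNAs, that match transposon transcripts, and guide the destruction of these transcripts and the silencing of their genes. piRNA precursors are unwound, cut at the outer membrane of mitochondria, loaded onto PIWI proteins with the help of chaperones, and then trimmed and methylated. Most of these steps take place in germ granules such as the intermitochondrial cement, where proteins with Tudor domains bind methylated arginines of the PIWI proteins and hold the machinery together.

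RNA-seq was performed on preleptotene spermatocytes, the germ cells that replicate their DNA and start meiosis, sorted from testes of C57BL/6 mice. Spermatogenesis had been synchronized with WIN18,446, an inhibitor of retinoic acid synthesis, from postnatal day 2 to 8, and with retinoic acid on day 9, and testes were collected 6.75 days after that injection. There were 3 Stra8-deficient libraries (Stra8-/-), 2 low-STRA8 libraries and 2 high-STRA8 libraries (both Stra8+/-). Low and high STRA8 were assigned by staining a piece of each testis, and stand for the early preleptotene stage, just before meiotic initiation, and the mid or late stage, after it. STRA8 is the factor that germ cells require to initiate meiosis in response to retinoic acid. All mice for RNA-seq were also Ddx4 Cre/+ Rosa26 tdTomato/+, since cells were sorted on a red reporter that Cre switches on in the germline. As the Cre sits in Ddx4, itself one of the 30 genes, all 7 libraries have 1 modified Ddx4 allele, and the Ddx4 level shown here is not that of a wild-type mouse. ChIP-seq with an antibody to FLAG was performed on whole, unsorted testes on the same schedule, from 3 Stra8 FLAG/FLAG mice, whose STRA8 has an epitope tag at its N terminus, and 3 wild-type mice, C57BL/6 with under 4% of strain 129. Replicates 1 and 2 of each were made with one library kit and replicate 3 with another, and each FLAG/FLAG sample was processed beside the wild-type sample of the same number.

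Libraries held between 25049625 and 30015072 estimated reads. Stra8 itself stood at 5.16 to 22.8 TPM in Stra8-deficient, 236 and 315 TPM in low-STRA8 and 1099 and 1248 TPM in high-STRA8 cells. Of 8 germ cell markers (Dazl, Gcna, Sycp3, Kit, Dmrt1, Tex101, Prdm9 and Dmc1), 8 exceeded 1 TPM. Their summed level was 4747 to 6594 TPM in Stra8-deficient, 3895 to 4181 TPM in low-STRA8 and 8334 to 9384 TPM in high-STRA8 cells. Against Stra8-deficient cells, 5 of the 8 were called higher and 1 lower in high-STRA8 cells. The paper reports Dazl, Gcna, Sycp3, Prdm9 and Dmc1 as upregulated at meiotic initiation, so the sum is no measure of germ cell content. The 13 markers of pachytene and later germ cells, Piwil1 among them, summed to 5.24 to 7.44 TPM in Stra8-deficient, 2.81 and 3.48 TPM in low-STRA8 and 3.83 and 4.60 TPM in high-STRA8 cells. Markers of other cell types also moved with a library or a group. The 9 peritubular and endothelial cell markers summed to 81.7 to 96.5 TPM in Stra8-deficient, 54.2 and 75.9 TPM in low-STRA8 and 64.2 and 81.1 TPM in high-STRA8 cells. The 13 Sertoli cell markers summed to 360 and 1315 TPM in the 2 low-STRA8 libraries and to 986 to 1351 TPM in the other 5. The 8 Leydig cell markers summed to 11.6 and 41.0 TPM in low-STRA8, 27.6 to 34.8 TPM in Stra8-deficient and 21.8 and 22.1 TPM in high-STRA8 cells, with Lhcgr at or under 0.1 TPM throughout, and 1 of the 8 was called lower in high-STRA8 cells against Stra8-deficient ones. The 10 markers of macrophages and blood cells summed to 46.8 and 52.2 TPM in low-STRA8, 10.8 to 37.6 TPM in Stra8-deficient and 2.03 to 9.17 TPM in high-STRA8 cells, although Ptprc and Adgre1 were at or under 0.1 TPM in all 4 Stra8+/- libraries. Summed markers of undifferentiated spermatogonia were also higher in Stra8-deficient cells, with 276 to 299 TPM, than in low-STRA8, with 189 to 197 TPM, and high-STRA8 cells, with 158 to 161 TPM. The part of these cells in the results below was not tested. Fewer cells of a type and less RNA per cell cannot be told apart in such bulk samples.

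In FLAG/FLAG testes, STRA8 summits lay at the promoters of 13 of the 30 genes. A gene was called STRA8-bound when a ChIP summit lay within 1 kb of one of its transcription start sites (TSS) in at least 2 of 3 FLAG/FLAG libraries and in no wild-type library. By this rule 22.5% of the 12329 genes tested for expression that have an annotated TSS were bound. The bound genes were Piwil2, Ddx4, Mael, Mov10l1, Tdrd7, Tdrkh, Gpat2, Pld6, Rnf17, Stk31, Fkbp6, Hsp90aa1 and Tex19.1. Not one of the 30 had a promoter summit in any of the 3 wild-type libraries. Those libraries had only 99, 9 and 16 promoter summits over all genes, so most genes had none. The strongest summits were those of Gpat2, Stk31, Hsp90aa1 and Rnf17. All 4 genes also rose in RNA. Stretches are shown from the promoters of Gpat2, Stk31 and Rnf17, which hold a match to the motif described below. Beside them is one from Pld6, which was bound and fell. Hsp90aa1, of which no stretch is shown, has no match in the 2 kb around its TSS, and neither has Pld6.

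The sequences below are from the mouse genome assembly mm10 (GRCm38.p6 from RefSeq). Capitals mark matches to CNCCTCAG, on either strand and in the letters of the strand shown. The study found this motif de novo at STRA8 summits of these ChIP data, near genes both bound and upregulated. The first 3 are the 100 bases before the TSS on the strand of the gene, from Gpat2 (chr2:127425099-127425198), Stk31 (chr6:49395504-49395603) and Pld6 (chr11:59787643-59787742).
Gpat2: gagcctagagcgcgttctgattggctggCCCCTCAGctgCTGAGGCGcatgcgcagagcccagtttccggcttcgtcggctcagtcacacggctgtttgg
Stk31: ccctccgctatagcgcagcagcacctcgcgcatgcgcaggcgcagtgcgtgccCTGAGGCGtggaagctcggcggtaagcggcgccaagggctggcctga
Pld6: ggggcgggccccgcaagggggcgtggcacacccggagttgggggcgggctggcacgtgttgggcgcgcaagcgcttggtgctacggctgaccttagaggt
The next 3 are 30 bases around a single match, on the strand of the motif, from Rnf17 (chr14:56402668-56402697), from Fkbp6 (chr5:135349958-135349987) and from Asz1 (chr6:18109003-18109032), which has a match near its TSS and no summit.
Rnf17: acgtgctgctgCCCCTCAGcgctgagagga
Fkbp6: gcgtcttctcgCGCCTCAGgaacggaatcc
Asz1: ccactgccaagCCCCTCAGtgtgcccgctg

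Gpat2, which encodes a mitochondrial acyltransferase homolog needed to make piRNAs, had the highest summit score of the 30 genes, 72.9 in replicate 1 (the score is -log10 of the p-value of the summit against the input of the same mouse). Its scores in replicates 2 and 3 were 26.4 and 35.7, and the summits lay 13 bp before, 29 bp after and 11 bp after the TSS. Its 2 motif matches, 69 and 58 bp before the TSS, lie on opposite strands in the sequence above. Stk31, a Tudor domain protein with a kinase-like domain, had scores of 64.4, 42.0 and 25.8 at 17, 37 and 6 bp before its TSS, and its match lay 44 bp before it. In Hsp90aa1, a cytosolic HSP90 chaperone, the scores were 58.3, 22.0 and 36.6 at 96, 96 and 87 bp before the TSS. Rnf17, a Tudor domain protein of its own granule in male germ cells, had scores of 42.2, 23.5 and 36.4, with summits from 31 bp before to 3 bp after the TSS and a match 15 bp before it. These 4 genes ranked between 183 and 555 among the 5687 summits of replicate 1, between 220 and 793 among the 3299 of replicate 2 and between 217 and 373 among the 2035 of replicate 3.

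The other 9 bound genes had weaker summits. Ddx4, the VASA RNA helicase of germ granules, and Tdrkh, which tethers PIWI proteins to mitochondria, were the only others with a summit in all 3 FLAG/FLAG libraries. Ddx4 scored 13.4, 10.6 and 10.5, and Tdrkh scored 21.9, 9.43 and 6.95. Mael, a granule protein needed for transposon silencing, scored 35.9 and 13.2 in replicates 1 and 2, and Mov10l1, the helicase that feeds piRNA precursors to processing, scored 13.4 and 17.0. Tdrd7 had scores of 7.0 and 13.5 in the same libraries, both at the second of its 2 annotated TSSs (chr4:45972233) and none at the first (chr4:45965334). Piwil2, the PIWI protein MILI, scored 12.6 and 8.65 in replicates 1 and 3, Fkbp6, a co-chaperone of PIWI loading, scored 12.3 and 11.8, Tex19.1, a mammalian repressor of retrotransposons, scored 11.5 and 12.2, and Pld6, the mitochondrial nuclease that cuts piRNA precursors, scored 10.3 and 10.9.

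Among the 17 genes not called bound, Tdrd3, Henmt1 and Wdr77 had a summit in FLAG/FLAG replicate 1 alone, with scores of 7.96, 8.90 and 13.9. The Henmt1 and Wdr77 summits also lay within 1 kb of a TSS of Gm9857 and Atp5f1, which run the other way. The remaining 14 genes, among them Piwil1, Piwil4, Tdrd1, Tdrd5, Tdrd9, Prmt5 and Morc1, had no promoter summit in any library. The count of bound genes rested on replicate 1, which had the most summits. Without FLAG/FLAG replicate 1, or with summits required in 3 of 3 libraries, 6 genes were bound, namely Ddx4, Tdrkh, Gpat2, Rnf17, Stk31 and Hsp90aa1, beside 12.1% and 11.9% of genes tested.

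**Figure D1:**
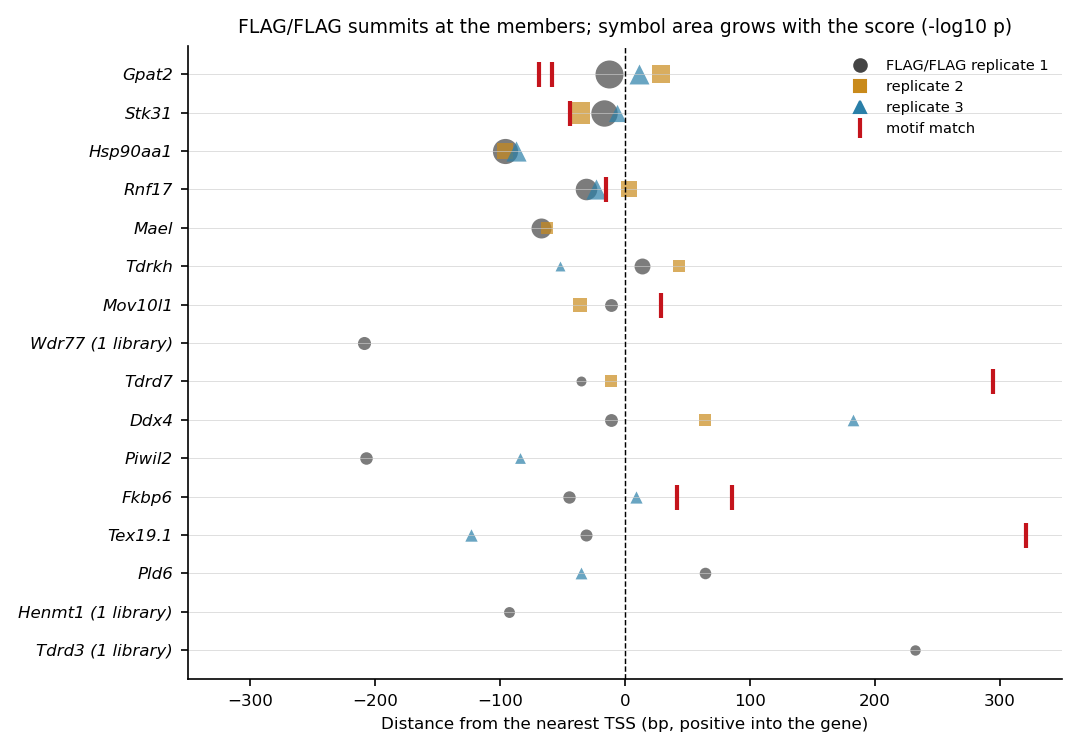
FLAG/FLAG summits at the 16 genes with at least 1 summit, by distance from the nearest TSS of the gene (x axis, bp), with symbols for the 3 replicates, symbol area growing with the score, and red bars for CNCCTCAG matches within 350 bp, each placed by its own nearest TSS. The exception is Tdrd7, whose matches at -115 and 217 bp from its first TSS, where it had no summit, are not drawn. Genes are ordered by their highest score, and the summits of Gpat2, Stk31, Hsp90aa1 and Rnf17 lie within 96 bp of the TSS in all 3 replicates.

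Motif matches lay at some of these summits and not at others. Of 35 FLAG/FLAG summits at the 30 genes, 8 (22.9%) had a match in the 100 bp around them, beside 1126 of 8944 (12.6%) of all FLAG/FLAG promoter summits, and the 8 came from Stk31 and Rnf17 in all 3 replicates and from Gpat2 and Fkbp6 in 1 each. In the 2 kb around the TSS, a match was present at 11 of the 30 genes (36.7%), at 43.0% of all genes with a TSS and at 61.6% of bound genes. Of the 13 bound genes, 8 had such a match, and Ddx4, Mael, Tdrkh, Pld6 and Hsp90aa1 had none. Of the 17 others Asz1, Tdrd1 and Ddx25 had one. Since these are matches to letters, they do not show that the motif was occupied. The motif was itself derived from summits of these ChIP data, so its shares at summits and bound genes are not independent of them.

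In the sorted cells, 29 of the 30 genes exceeded 1 TPM in the mean of the Stra8-deficient group and 28 in that of each other group, and levels differed far more between genes than between groups. 14 of 30 genes exceeded 100 TPM in the mean of Stra8-deficient cells, 14 at low STRA8 and 15 at high STRA8, and the median gene stood at 96.2, 91.0 and 102 TPM. Hsp90aa1, Fkbp6 and Mael were the 3 highest in every group, in that order. Fkbp6 reached 956 ± 55.1 TPM (SD, n = 3) in Stra8-deficient, 984 ± 17.5 TPM (n = 2) in low-STRA8 and 950 ± 41.1 TPM (n = 2) in high-STRA8 cells. Its ranges overlapped in all 3 comparisons. The PIWI genes spanned the whole scale: Piwil2 stood at 329, 374 and 297 TPM in Stra8-deficient, 229 and 244 TPM in low-STRA8 and 303 and 288 TPM in high-STRA8 libraries, whereas Piwil1 (MIWI), known from pachytene spermatocytes and spermatids, stood at 1.54 to 2.84 TPM and Piwil4 (MIWI2), known from fetal germ cells, at 0.170 to 1.99 TPM. Piwil4 passed the filter only through 1 library, Stra8-deficient replicate 3, and rested on 7.01 to 83.6 estimated reads a library. Tdrd6, a chromatoid body protein of later germ cells, had at most 3 estimated reads and 0.0303 TPM, and was not tested.

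**Figure D2:**
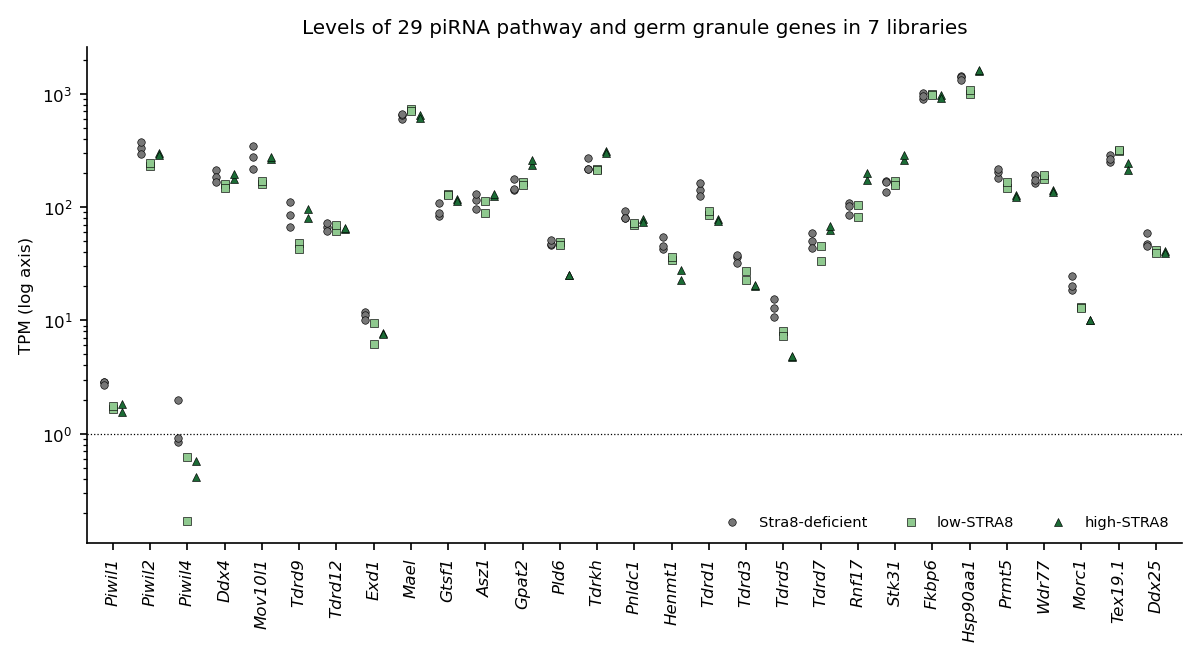
Levels of the 29 genes over 1 TPM in at least 1 library (y axis, TPM on a log axis, dotted line at 1 TPM), with 1 point a library (circles Stra8-deficient, squares low-STRA8, triangles high-STRA8). Genes range from Piwil4, at 0.170 to 1.99 TPM, to Hsp90aa1, at 1001 to 1637 TPM, and Tdrd6, at 0.0303 TPM or less, is not drawn.

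The question of the main comparison was which genes differ between preleptotene cells that initiate meiosis and Stra8-deficient cells that do not. Of 29 genes tested, high-STRA8 cells had more RNA of 5 and less of 7 than Stra8-deficient cells, and 17 did not pass the threshold (adjusted p under 0.05 by edgeR's quasi-likelihood test, Benjamini-Hochberg over 12511 genes). Among all genes tested, 18.9% were higher and 18.3% lower, 37.1% in all, so that the share of called genes in the list was near that of the background. The median log2 fold change was -0.0816 over the 29 genes and -0.0165 over all genes. The called genes went both ways, as did those of the whole table: 3 Tudor domain genes, Gpat2 and Hsp90aa1 rose, and 3 other Tudor domain genes, 2 enzymes that process piRNAs, Prmt5 and Morc1 fell. On log2(TPM + 1) with limma, which shifts the median of all genes, the calls were 4 higher and 9 lower, against 2053 higher and 3016 lower over all genes.

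Rnf17 stood at 109, 102 and 85.1 TPM in Stra8-deficient, 104 and 81.8 TPM in low-STRA8 and 173 and 201 TPM in high-STRA8 libraries. Both high-STRA8 values lay above the other 5. The fold was 1.98, a log2 fold change of 0.99 ± 0.137 (SE), with an adjusted p of 9.93e-04 by edgeR. Stk31 stood at 171, 168 and 135 TPM, then 169 and 158 TPM, then 259 and 286 TPM, in the same order of groups. It too was highest in both high-STRA8 libraries, by a fold of 1.82 against Stra8-deficient cells (log2 fold change 0.87 ± 0.108, adjusted p = 6.19e-04, edgeR). Gpat2 went from 141, 176 and 143 TPM in Stra8-deficient through 166 and 158 TPM in low-STRA8 to 235 and 258 TPM in high-STRA8 libraries, a fold of 1.71 (log2 fold change 0.77 ± 0.116, adjusted p = 0.00145, edgeR). Each of these 3 genes was called under all 15 alternatives tried, and each was already transcribed at over 80 TPM in cells without STRA8.

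Tdrd7, a chromatoid body protein that remodels ribonucleoproteins, and Hsp90aa1 rose less. Tdrd7 stood at 50.5, 58.6 and 43.2 TPM in Stra8-deficient, 45.2 and 33.6 TPM in low-STRA8 and 62.7 and 68.3 TPM in high-STRA8 libraries, a fold of 1.37 (log2 fold change 0.45 ± 0.143, adjusted p = 0.0369, edgeR). Hsp90aa1 stood at 1430, 1418 and 1317 TPM, then 1001 and 1089 TPM, then 1598 and 1637 TPM, a fold of 1.24 (log2 fold change 0.30 ± 0.0975, adjusted p = 0.0388, edgeR). Neither gene overlapped between high-STRA8 and Stra8-deficient cells, but the calls were near the threshold. Tdrd7 was called under 8 and Hsp90aa1 under 5 of 15 alternatives, and both calls were lost without Stra8-deficient replicate 1, without Stra8-deficient replicate 3 and without either high-STRA8 replicate, with adjusted p up to 0.219 and 0.230, and that of Hsp90aa1 also without Stra8-deficient replicate 2. Hsp90ab1, the close relative with which Hsp90aa1 may share reads, fell from 2578 ± 64.0 TPM (n = 3) to 1611 ± 93.3 TPM (n = 2).

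Pld6 and Henmt1, 2 enzymes of piRNA processing, fell. Pld6 stood at 46.7, 46.8 and 51.1 TPM in Stra8-deficient, 48.7 and 46.0 TPM in low-STRA8 and 25.2 and 25.2 TPM in high-STRA8 libraries. The low-STRA8 and Stra8-deficient values overlapped, and the level of high-STRA8 cells was 45.6% below that of Stra8-deficient cells (log2 fold change -0.88 ± 0.140, adjusted p = 0.00187, edgeR). It was also the one STRA8-bound gene among the 7 that fell. Henmt1, the methyltransferase that caps the 3′ ends of piRNAs, fell from 42.9, 54.0 and 45.8 TPM in Stra8-deficient to 28.0 and 22.5 TPM in high-STRA8 libraries, with 34.1 and 36.6 TPM in low-STRA8 libraries (log2 fold change -0.84 ± 0.157, adjusted p = 0.00393, edgeR). Its exons share 348 bases with those of Gm9857 on the other strand, and whether strand was used in the authors' quantification is not given in the sources used here. Without high-STRA8 replicate 2 its adjusted p was 0.0541.

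The 3 Tudor domain genes that fell were Tdrd1, Tdrd3 and Tdrd5. Tdrd1, a scaffold of the intermitochondrial cement that binds PIWIL2, stood at 142, 164 and 126 TPM in Stra8-deficient, 85.3 and 93.2 TPM in low-STRA8 and 79.0 and 74.9 TPM in high-STRA8 libraries. The log2 fold change of high-STRA8 against Stra8-deficient cells was -0.81 ± 0.122 (adjusted p = 0.00143, edgeR). Its parts were -0.50 from Stra8-deficient to low-STRA8 and -0.31 from low- to high-STRA8 cells, but -0.25 and -0.59 once the trend of fold changes with transcript length, described below, was removed. Tdrd5, a germ granule protein, had the largest fold of the called genes, from 12.8, 10.6 and 15.5 TPM through 8.10 and 7.31 TPM to 4.78 and 4.87 TPM, 2.54-fold lower in high-STRA8 cells (log2 fold change -1.34 ± 0.199, adjusted p = 0.00133, edgeR). An antisense gene overlaps 176 bases of its exons. Tdrd3, which reads methylated arginines and is not restricted to germ cells, stood at 36.5, 37.6 and 32.3 TPM, then 22.8 and 27.5 TPM, then 20.05 and 20.5 TPM (log2 fold change -0.68 ± 0.126, adjusted p = 0.00382, edgeR). In all 3 genes the TPM of the low-STRA8 libraries lay between those of the other groups, with no overlap. The share of all genes with such an order was not computed. Between low-STRA8 and Stra8-deficient cells, Tdrd3 and Tdrd5 did not pass (adjusted p = 0.174 and 0.0638, edgeR).

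Prmt5, the enzyme that methylates arginines of PIWI proteins, and Morc1, needed to silence transposons in male germ cells, had the same order of groups in TPM. Prmt5 stood at 179, 204 and 216 TPM in Stra8-deficient, 148 and 166 TPM in low-STRA8 and 129 and 124 TPM in high-STRA8 libraries (log2 fold change of high-STRA8 against Stra8-deficient cells -0.58 ± 0.129, adjusted p = 0.00849, edgeR), and the call was lost without either high-STRA8 replicate, with an adjusted p up to 0.0788. Morc1 stood at 18.4, 19.9 and 24.8 TPM, then 13.2 and 12.9 TPM, then 10.03 and 10.2 TPM, 1.98-fold lower in high-STRA8 cells (log2 fold change -0.98 ± 0.174, adjusted p = 0.00307, edgeR). In TPM, no value of one group reached that of another in either gene, but the share of all genes with this order was not computed. On log2(TPM + 1), low-STRA8 cells were lower over all genes too, with a median of -0.153 against Stra8-deficient cells (limma). By edgeR, the log2 fold change between these 2 groups was -0.15 ± 0.127 for Prmt5 and -0.51 ± 0.170 for Morc1. Neither gene passed between low-STRA8 and Stra8-deficient cells (adjusted p = 0.423 for Prmt5 and 0.0619 for Morc1, edgeR).

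**Figure D3:**
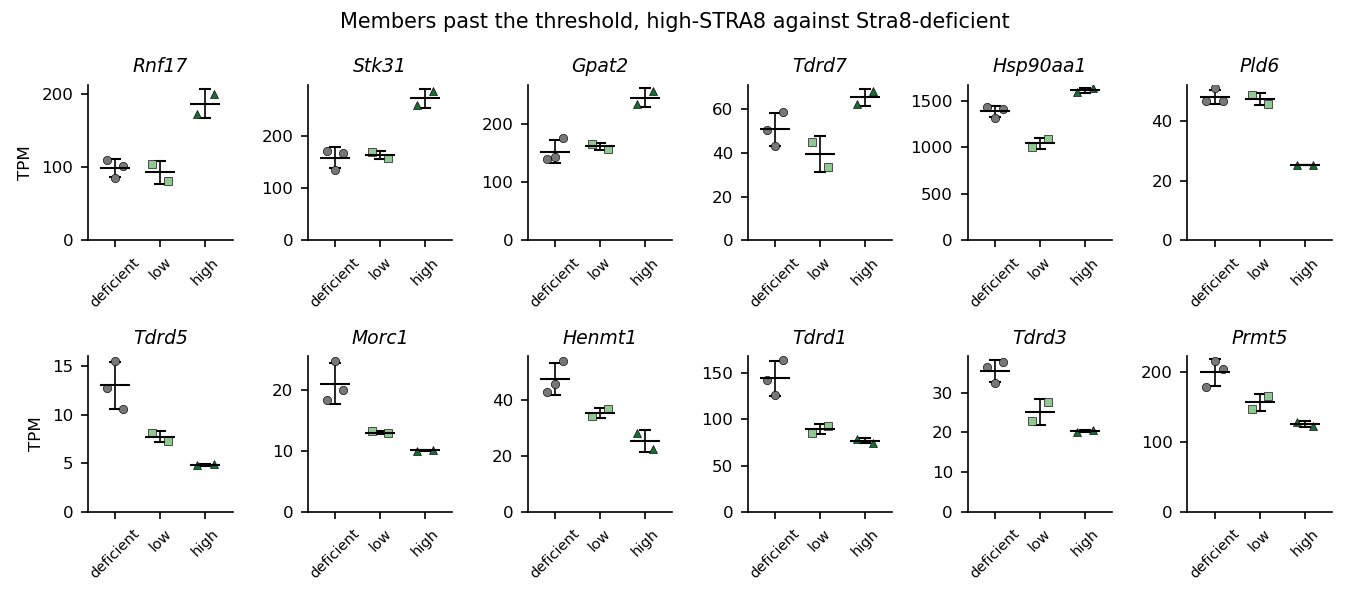
TPM of the 12 genes past the threshold between high-STRA8 and Stra8-deficient cells, with 1 panel a gene, an axis from 0 in each, points for libraries, and bars for the mean ± SD (n = 3, 2 and 2). The first 5 genes are highest in the 2 high-STRA8 libraries, and the other 7 are lowest there.

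Called genes were split by STRA8 binding. All 5 genes that rose were STRA8-bound, and of the 13 bound genes 5 rose (38.5%), 1 fell (7.69%) and 7 did not pass the threshold. Of the 16 genes tested that were not bound, 0 rose by edgeR, 6 fell (37.5%) and 10 did not pass. Higher genes among these 16 numbered 0 at an unadjusted p under 0.05 by edgeR, 0 by DESeq2, and by limma 0 at an adjusted and 1 at an unadjusted p. Gtsf1, a zinc finger partner of PIWI proteins that was not bound, was higher in 3 of 15 alternatives, with that length trend removed (adjusted p = 0.0226), with a replicate block (adjusted p = 0.0446) and without Stra8-deficient replicate 3 (adjusted p = 0.0287), all by edgeR. The count of bound genes among the 5 that rose was 4, without Tdrd7, when summits were required in 3 of 3 libraries or at a score of at least 10, and without FLAG/FLAG replicate 1 or 2. The same split was present over the whole table: 47.7% of bound genes tested rose and 5.66% fell against Stra8-deficient cells, beside 10.6% and 22.0% of genes not bound. The 29 genes leaned the same way as all genes of their binding class. The counts are too small to set them apart from that background or to show that they follow it. Binding did not come with a change in each gene, since Fkbp6, Mael, Ddx4, Piwil2 and Mov10l1 were bound and had log2 fold changes of 0.04, 0.06, 0.08, -0.08 and 0.05, with SEs of 0.0962 to 0.161. The 4 genes with the highest summits in all 3 replicates were among the 5 that rose.

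**Figure D4:**
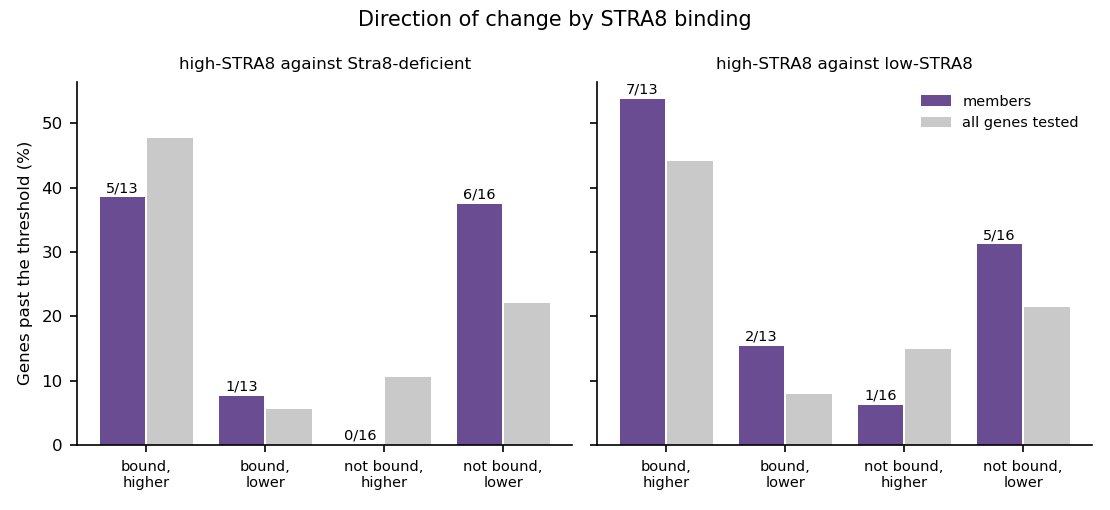
Share of genes (y axis, %) past the threshold in each direction among STRA8-bound genes and genes not bound, for the 29 piRNA pathway and germ granule genes tested (counts above the bars) and for all genes tested with a TSS. The bound genes rose in 5 of 13 cases against Stra8-deficient cells and 7 of 13 against low-STRA8 cells.

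The second comparison, between high- and low-STRA8 cells, asked the same of Stra8+/- cells before and after meiotic initiation. It used the same 2 high-STRA8 libraries, so it is not independent of the first. Here 8 genes rose and 7 fell from low to high STRA8, beside 21.4% higher and 18.3% lower of all genes tested, 39.7% in all, and the median was -0.106 over the 29 genes and 0.00585 over all genes. Rnf17, with a fold of 1.90, Stk31, with 1.54, Gpat2, with 1.41, Tdrd7, with 1.54, and Hsp90aa1, with 1.44, were higher again. Their adjusted p-values by edgeR were 0.00308, 0.00525, 0.0175, 0.0154 and 0.00679. Pld6 was again lower, by 52.1% (log2 fold change -1.06 ± 0.151, adjusted p = 0.00175, edgeR), as were Tdrd5, by a log2 value of -0.78 (adjusted p = 0.0199), Henmt1, with -0.58 (adjusted p = 0.0265), Tdrd3, with -0.43 (adjusted p = 0.0362), and Prmt5, with -0.43 (adjusted p = 0.0386). By binding, 7 of the 13 bound genes rose and 2 fell, and 1 of the 16 others rose and 5 fell, where over all genes tested 44.2% of bound genes rose and 7.93% fell, and 14.9% of genes not bound rose and 21.4% fell. Tdrd1 and Morc1 did not pass, with log2 fold changes of -0.31 ± 0.130 (adjusted p = 0.0885) and -0.48 ± 0.186 (adjusted p = 0.0730).

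Another 3 genes were higher and 2 lower in high- than in low-STRA8 cells with no call against Stra8-deficient cells. Mov10l1 stood at 276, 343 and 219 TPM in Stra8-deficient, 160 and 169 TPM in low-STRA8 and 267 and 276 TPM in high-STRA8 libraries. Tdrd9, a helicase that acts with PIWIL4, stood at 84.4, 111 and 66.8 TPM, then 48.5 and 42.9 TPM, then 80.6 and 96.0 TPM. In both genes the 2 low-STRA8 libraries were the lowest of the 7, while high-STRA8 and Stra8-deficient libraries overlapped. High-STRA8 exceeded low-STRA8 cells 1.54-fold for Mov10l1 (adjusted p = 0.0240, edgeR) and 1.80-fold for Tdrd9 (adjusted p = 0.0121, edgeR), and 1.33-fold for Tdrkh (adjusted p = 0.0331, edgeR), at 217 and 211 TPM in low-STRA8 and 313 and 303 TPM in high-STRA8 libraries. The exons of Tdrkh share 340 bases with Oaz3 on the other strand.

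The 2 further genes that were lower were Tex19.1 and Wdr77, the partner of PRMT5. Tex19.1 stood at 249, 289 and 268 TPM in Stra8-deficient, 312 and 320 TPM in low-STRA8 and 247 and 211 TPM in high-STRA8 libraries (log2 fold change of high- against low-STRA8 cells -0.58 ± 0.125, adjusted p = 0.00794, edgeR), highest in both low-STRA8 libraries, like its close relative Tex19.2, with which it may share reads. Wdr77 stood at 194, 162 and 173 TPM, then 177 and 191 TPM, then 141 and 136 TPM (log2 fold change -0.52 ± 0.116, adjusted p = 0.00935, edgeR). Its exons share 1147 bases with Gm42890 on the same strand. The calls of this comparison depended on single libraries. Without high-STRA8 replicate 2, 2 genes were called, Pld6 and Rnf17, without high-STRA8 replicate 1 there were 8 and without low-STRA8 replicate 2 there were 9.

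Between low-STRA8 and Stra8-deficient cells, 3 genes were higher and 3 lower in low-STRA8 cells, beside 10.2% higher and 13.9% lower of all genes tested, 24.1% in all, and the median was -0.133 over the 29 genes and 0.0251 over all genes. The higher genes were Mael, at 605, 655 and 661 TPM in Stra8-deficient and 737 and 704 TPM in low-STRA8 libraries (log2 fold change 0.36 ± 0.0956, adjusted p = 0.0298, edgeR), Gtsf1, at 82.6, 88.6 and 110 TPM against 131 and 128 TPM (log2 fold change 0.67 ± 0.164, adjusted p = 0.0216, edgeR), and Tex19.1 (log2 fold change 0.43 ± 0.112, adjusted p = 0.0270, edgeR). The lower genes were Tdrd9 (log2 fold change -0.74 ± 0.187, adjusted p = 0.0240, edgeR), Mov10l1 (-0.57 ± 0.164, adjusted p = 0.0379) and Tdrd1 (-0.50 ± 0.120, adjusted p = 0.0208). The balance of directions changed with the scaling: limma on log2(TPM + 1) called 1 gene higher and 9 lower, against 498 higher and 2712 lower over all genes, with a median of -0.153 over all genes.

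Fold changes against low-STRA8 cells moved with transcript length over the whole table. From the shortest to the longest of 5 length classes, the median log2 fold change of all genes went from 0.27 to -0.378 between low-STRA8 and Stra8-deficient cells and from -0.337 to 0.418 between high- and low-STRA8 cells, but only from -0.0954 to 0.0398 between high-STRA8 and Stra8-deficient cells. The genes that were lower in low-STRA8 cells had long transcripts, with effective lengths of 4151 bases for Mov10l1, 4826 for Tdrd1 and 4927 for Tdrd9, and the higher ones short transcripts, with 533 for Gtsf1, 1256 for Mael and 1829 for Tex19.1. With this trend removed, none of these genes was called, and Wdr77 was (adjusted p = 0.0495). Leaving out single libraries also left 1 call without Stra8-deficient replicate 2, and 2 without Stra8-deficient replicate 1 or without either low-STRA8 replicate. Between high- and low-STRA8 cells, the trend took the calls of Mov10l1 and Henmt1, and left those of Rnf17, Stk31, Gpat2, Tdrd7, Tdrd9 and Pld6. Tdrd1 (-0.59 on the log2 scale, adjusted p = 0.00619 by edgeR) and Ddx25 (-0.60, adjusted p = 0.00775) were called only with the trend removed, so that the count was 15 again, with 7 higher and 8 lower.

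**Figure D5:**
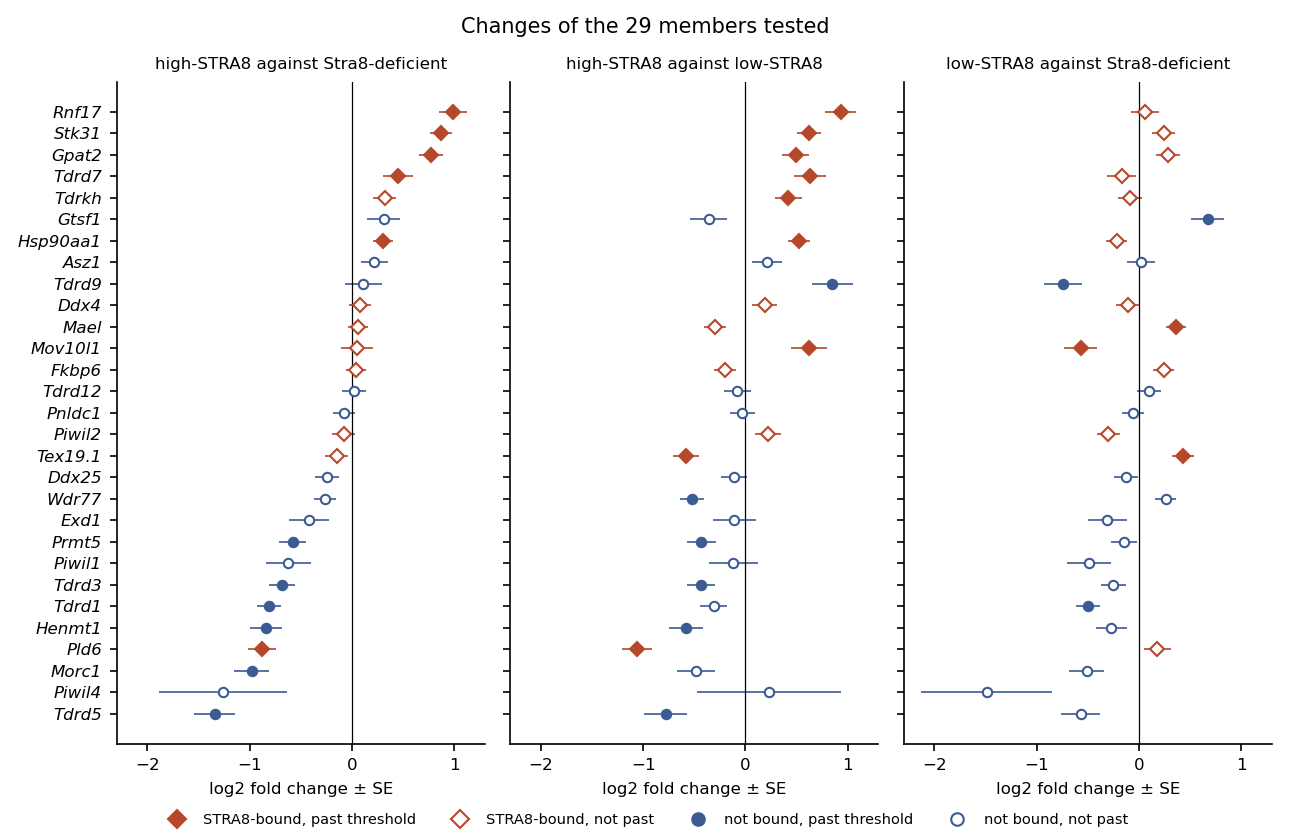
Log2 fold change ± SE (x axis) of the 29 genes tested in the 3 comparisons, in the order of the first. Diamonds are STRA8-bound genes and circles are genes not bound, and filled symbols passed the threshold. The 4 filled diamonds at the top and Hsp90aa1 are the 5 genes that rose, and Pld6 is the one filled diamond below 0 in the first panel.

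The following genes did not pass the threshold between high-STRA8 and Stra8-deficient cells. Among helicases and their partners, Ddx4 stood at 213, 186 and 166 TPM in Stra8-deficient, 161 and 148 TPM in low-STRA8 and 177 and 197 TPM in high-STRA8 libraries, and Tdrd12 at 61.7 to 72.9 TPM in all 7 libraries (log2 fold change of high-STRA8 against Stra8-deficient cells 0.02 ± 0.119). Exd1, a partner of TDRD12, stood at 10.1 to 11.8 TPM in Stra8-deficient and 7.68 and 7.51 TPM in high-STRA8 libraries (-0.42 ± 0.194, adjusted p = 0.129). Of mitochondrial and trimming factors, Asz1, an anchor of the intermitochondrial cement, had a log2 fold change of 0.22 ± 0.133 and Pnldc1, the trimmer of piRNA 3′ ends, of -0.08 ± 0.109. Piwil1, with -0.62 ± 0.218 (adjusted p = 0.0556), Tdrkh, with 0.32 ± 0.116 (adjusted p = 0.0605), and Wdr77, with -0.26 ± 0.106 (adjusted p = 0.0880), came near it, and the last 2 are those that passed between high- and low-STRA8 cells. Ddx25, an RNA helicase of later germ cells, stood at 39.1 to 59.0 TPM (-0.24 ± 0.118, adjusted p = 0.144).

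Genes next to this pathway were examined through 4 further lists. Of 15 other piRNA and transposon silencing genes tested, 5 were higher (Tex15, Mybl1, Adad1, D1Pas1 and Mfn2) and 2 lower (Spocd1 and Mov10) against Stra8-deficient cells, beside 18.9% higher and 18.3% lower of all genes tested, and the median log2 fold change was 0.220, beside -0.0165 over all genes. Mybl1, the transcription factor of pachytene piRNA genes, went from 6.53 ± 1.34 TPM (SD, n = 3) to 29.8 ± 0.292 TPM (n = 2) and was STRA8-bound (log2 fold change 2.44 ± 0.211, adjusted p = 1.28e-04, edgeR), a larger change than that of any of the 29 genes. Tex15, which acts in DNA methylation of transposons, went from 211 ± 75.0 to 449 ± 33.0 TPM (adjusted p = 0.00961, edgeR) and was not bound. Mov10, the somatic relative of Mov10l1, fell from 30.9 ± 6.10 to 13.8 ± 1.11 TPM (adjusted p = 0.00343, edgeR).

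Of 16 methylosome and HSP90 co-chaperone genes, 4 were higher (Snrpd1, Stip1, Ptges3 and Fkbp5) and 4 lower (Prmt7, Hsp90ab1, Fkbp4 and Cdc37), with a median of -0.126. Ptges3, the p23 co-chaperone, was bound and rose from 482 ± 99.0 TPM (n = 3) to 732 ± 11.7 TPM (n = 2), with an adjusted p of 0.00786 by edgeR. Of 12 processing body genes, 4 were higher (Dcp2, Lsm14a, Eif4enif1 and Patl1) and 1 lower (Dcp1b), with a median of 0.0512, and of 10 microRNA and siRNA pathway genes, 4 were higher (Ago3, Ago4, Dgcr8 and Tarbp2) and 2 lower (Ago1 and Ago2), with a median of 0.115. Each of the 3 lists had calls in both directions, as had all genes tested, of which 37.1% were called with a median of -0.0165. The Argonaute genes split, with Ago3 going from 13.3 ± 3.42 to 20.04 ± 1.39 TPM (adjusted p = 0.0161, edgeR) and Ago1 from 61.3 ± 8.80 to 36.4 ± 0.576 TPM (adjusted p = 0.00588, edgeR), and both were STRA8-bound.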

How the data were processed

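Poly(A) RNA of sorted cells (7 libraries, made, pooled and sequenced together, 40 bp single-end) and FLAG ChIP DNA of whole testes (6 libraries, 1 mouse each) had been sequenced. Input libraries were not used here. The deposited estimated counts and TPM of transcripts come from kallisto 0.43.0, run by the authors. Gene TPM were summed and rescaled over protein-coding genes by the authors. The authors' signal per gene (estimated counts divided by DESeq2 1.18.1 normalization factors) was not tested here, because it is no longer a count. For ChIP-seq, the authors aligned reads with Bowtie 1.2.0 to mm10 and called summits in each replicate with MACS2 2.1.1.20160309 against the matched input, and the deposited score of a summit is its -log10 p-value.

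Here, transcripts were joined to genes through GENCODE M21, within 0.2% or 0.003 TPM of the authors' gene TPM. Genes over 1 TPM in at least 1 library were kept (12511 of 12545, with 34 not joined), and counts, rounded, were tested with edgeR 4.0.16 (TMM, robust quasi-likelihood, 1 fit of 7 libraries with 3 contrasts, 4 residual degrees of freedom, R 4.3.3) at an adjusted p of 0.05. The fit was also run on counts simulated with its own dispersions and with far fewer changed genes than were called here. That run does not check the fit under the conditions of these data. Replicates of a group differed beyond sampling noise (chi-square per degree of freedom of 9.27 to 38.2). The p-values set differences between groups against the spread between replicates. The SE of an edgeR log2 fold change was derived from its test, as its absolute value divided by the square root of the quasi-likelihood F statistic. Promoters, motifs and figures used numpy 2.4.6, pandas 2.3.3 and matplotlib 3.10.9 under Python 3.11.15. The 30 genes, the other lists, the tests and the alternatives were chosen with earlier results of these data known. Full values are given for genes past the threshold, bound genes and genes at or under 1 TPM, and, of each other list, for some of the 4 genes with the smallest adjusted p between high-STRA8 and Stra8-deficient cells. Alternatives were other normalizations and filters, DESeq2 1.42.0, limma 3.58.1 on log2 TPM, length corrections, a replicate block, leaving out each library, and other windows and rules for summits and motifs.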

Additional observations from a re-analysis of the deposited data

Results flagged for a closer look

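The report used FLAG summits within 1 kb of a TSS, and 2 FLAG/FLAG summits lay inside genes of the list but away from any promoter, where the wild-type libraries had none. In FLAG/FLAG replicate 1, a summit with a score (-log10 p) of 11.2 lay in an intron of Rnf17 (chr14:56485138), 82441 bp from its nearest TSS, and one with a score of 6.55 lay in an intron of Ddx4 (chr13:112628106), 24195 bp from its nearest TSS. Neither had a summit in FLAG/FLAG replicates 2 or 3 or a motif match in the 100 bp around it, and no other protein-coding TSS lay within 1 kb.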

How the results depend on the processing

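Each comparison was recomputed under 15 alternatives. No gene that was called changed sign. Of 12 genes called between high-STRA8 and Stra8-deficient cells, 8 were called in all 15 (Tdrd1, Tdrd3, Tdrd5, Gpat2, Pld6, Rnf17, Stk31 and Morc1), against 2 of 15 genes (Pld6 and Rnf17) between high- and low-STRA8 cells and 0 of 6 between low-STRA8 and Stra8-deficient cells. In the last comparison, 10 genes were called by limma on log2(TPM + 1) and 10 on log2(TPM + 0.1) (1 higher, 9 lower), and 1 with the length trend removed. Leaving out single libraries gave 8 to 14, 2 to 16 and 1 to 6 calls in the 3 comparisons. The median log2 fold change of the 29 genes was -0.15, -0.015 and -0.31 with either limma fit, in which the median of all genes was -0.0813, 0.110 and -0.153 with a pseudocount of 1. The second was -0.013 with the length trend removed. It ranged over -0.12 to -1.5e-04, -0.20 to -0.048 and -0.19 to -0.065 without single libraries, the first reaching near 0 without Stra8-deficient replicate 2. The cause of these shifts was not tested. The labels do not say whether replicate numbers pair the libraries. Same-numbered libraries correlated in their deviations from the group means at -0.17 to -0.033. In a group of 2 libraries these deviations mirror each other, so the correlations cannot decide on pairing. With a replicate block 11, 13 and 5 genes were called, with medians of -0.093, -0.085 and -0.18. Bound genes numbered 6 with summits in 3 of 3 FLAG/FLAG libraries and 6 to 10 without single FLAG/FLAG libraries. A motif match was present at 11 genes in 2 kb and at 7 in 400 bp around the TSS. Depth limited Piwil4, with 7.01 to 83.6 reads, and with 2 libraries in a group small changes can be missed.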
